A study of Arabidopsis thaliana with 4 samples.

Results

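The genes described here encode the nuclear part of the photosynthetic light reactions. They were taken from a fixed list of 53 loci out of 27444 nuclear protein-coding genes: 21 antenna genes (6 LHCA and 15 LHCB), 13 photosystem I genes (PSA), 12 photosystem II genes (PSB) and 7 genes of electron transport (plastocyanin, the Rieske protein, ferredoxin and ferredoxin-NADP reductase, FNR). The measurement was ChIP-seq of LEC1, an NF-YB subunit of the CCAAT-binding NF-Y complex that governs embryo maturation. Chromatin came from developing seeds of Arabidopsis thaliana lec1-4 mutants with a LEC1-FLAG transgene driven by the LEC1 promoter (pLEC1:LEC1-FLAG lec1-4), and was precipitated with an anti-FLAG antibody. All 4 libraries, 2 ChIP and 2 input, had this genotype, and the plants were kept at 22°C in long days (16 h light, 8 h dark). The labels give a mature seed stage, whereas the series title names embryo expansion. None of the 4 samples was a FLAG precipitation from plants without the tag, so LEC1-FLAG binding and background of the antibody cannot be told apart. Whole seeds were used, so the share of nuclei with LEC1 at a site and the strength of binding in each cannot be told apart either.

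Light reactions begin in antenna proteins, which hold chlorophyll and pass excitation energy to the reaction centres. Photosystem II takes electrons from water, the cytochrome b6f complex and plastocyanin carry them to photosystem I, and ferredoxin and FNR deliver them to NADP. The reaction centre cores are encoded in the chloroplast, while the antenna proteins and most peripheral subunits come from nuclear genes. Arabidopsis embryos are green while they fill with storage reserves and lose their chlorophyll as they dry.

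Each ChIP library had its own list of peaks, called by the authors over its own input. A gene was called met when the point of highest signal in a peak, the summit, lay within a window around a gene end that reached 1000 bp away from the gene and 200 bp into it. Replicate 1 had 15542 nuclear summits from 4454133 ChIP tags and 7578894 input tags. Replicate 2 had 3777 from 4493099 ChIP tags and 9646586 input tags, so its shorter list sets how many genes can be met in both. Fold is the authors' ratio of ChIP pileup (overlapping fragments) to the peak caller's background. At these genes that background followed the local input but did not go below the genome-wide mean coverage of the ChIP library. Each interval is the 95% Poisson interval of the pileup, which covers counting error only. With 2 ChIP libraries of 1 group there was no contrast to test. Lists are therefore given as counts and medians beside those of all genes, and differences between lists were not tested.

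Nearly every gene of the light reactions was met in replicate 1, and a smaller number in replicate 2 as well. In replicate 1, 48 of the 53 genes (90.6%) had a gene-end summit, against 42.4% of all protein-coding genes. In replicate 2, 20 of 53 (37.7%) had one, against 12% of all genes. All 20 were also among the 48 of replicate 1, so 20 of 53 genes (37.7%) were met in both replicates, against 11.7% of all genes. Over all genes too, most of those met in replicate 2 were met in replicate 1, 3201 of 3307. Of the 53, 28 were met in replicate 1 alone, none in replicate 2 alone and 5 in neither list (LHCA3, PSAD1, PSAO, PSBY and FNR2). Of all 27444 genes, 8433 were met in replicate 1 alone, 106 in replicate 2 alone and 15704 in neither. At each of the 20 genes a replicate 1 and a replicate 2 summit lay within 150 bp of each other, which makes 37.7% of the 53 genes, against 11.1% of all genes. Such close summits were common to genes met in both replicates, at 95.3% of them over all genes.

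Antenna, photosystem I and photosystem II genes had like shares in replicate 1 and unlike shares in both replicates. In replicate 1, 20 of 21 antenna genes (95.2%), 11 of 13 photosystem I genes (84.6%) and 11 of 12 photosystem II genes (91.7%) were met, against 42.4% of all genes. In both replicates these counts were 11 of 21 (52.4%), 3 of 13 (23.1%) and 3 of 12 (25%), against 11.7% of all genes. Electron transport genes had 6 of 7 (85.7%) in replicate 1 and 3 of 7 (42.9%) in both. With −log10 q of at least 5 required in both lists, 4 of 21 antenna genes (19.0%), 2 of 13 photosystem I genes (15.4%), 1 of 12 photosystem II genes (8.33%) and 2 of 7 electron transport genes (28.6%) were met, against 6.65% of all genes. The lead of the antenna over photosystem I was thus small at that threshold. The median replicate 1 fold over the met genes was 6.49 for the antenna, 4.79 for photosystem I, 5.71 for photosystem II and 6.04 for electron transport, beside 4.27 over all met genes. Over the genes met in both replicates the order was another one. The replicate 1 medians there were 7.26 for the antenna, 10.1 for photosystem I, 8.12 for photosystem II and 14.5 for electron transport, and the replicate 2 medians were 2.61, 3.32, 2.58 and 3.97. The antenna thus had more genes met in both replicates without a higher fold at them.

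**Figure D1:**
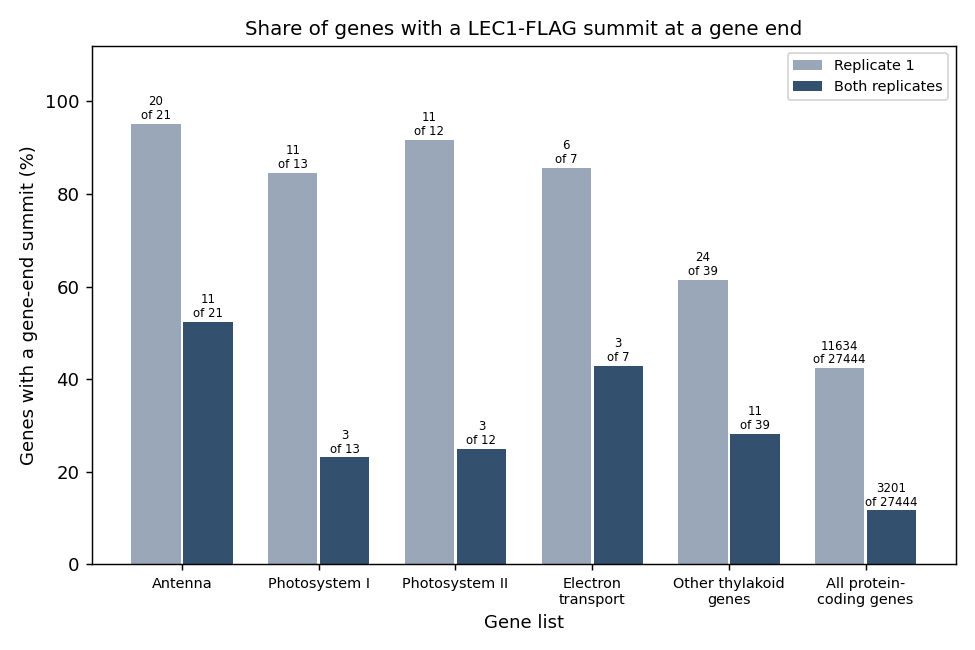
Share of genes (%, vertical axis) with a gene-end summit in replicate 1 (light bars) and in both replicates (dark bars), by gene list, with the counts above the bars. The light bars of the 4 member classes lie between 84.6% and 95.2%, and the dark bar is 52.4% for the antenna against 23.1% and 25% for the photosystems.

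Among the antenna genes, those for LHCII, the trimeric complex that serves mainly photosystem II, came first. LHCB2.2 (AT2G05070) had a pileup of 119 fragments in replicate 1 and 32 in replicate 2, at summits 1800513 and 1800541 of chromosome 2 (TAIR10), 41 and 69 bp outside a gene end. Its fold was 15.1 in replicate 1 (12.5 to 18.0) and 5.00 in replicate 2 (3.47 to 7.002), which placed it 292nd of 11634 and 427th of 3307 met genes. Both its homologues, which encode the same type of LHCII protein, were met in both replicates as well. LHCB2.1 (AT2G05100) had pileups of 102 and 27 and folds of 7.72 (6.31 to 9.36) and 3.31 (2.22 to 4.77), with summits 9 bp apart. LHCB2.3 (AT3G27690) had pileups of 59 and 17 and folds of 7.08 (5.42 to 9.10) and 2.61 (1.58 to 4.09), with summits 13 bp apart. The whole LHCB2 group therefore had summits in each replicate just outside a gene end. The replicate 1 pileups of LHCB2.2 and LHCB2.1 were alike, and the background, with the added 1, was 7.96 at LHCB2.2 and 13.3 at LHCB2.1. The value at LHCB2.2 is not a local input level. It was the lowest of all members and recurred at PSAK and PSBS. It equals the genome-wide mean coverage of extended ChIP tags plus the added 1.

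The LHCB1 genes, which encode the most abundant LHCII protein, lie in 2 clusters. LHCB1.4 (AT2G34430) and LHCB1.5 (AT2G34420) are neighbours, and the stretch between them held 2 replicate 1 summits 906 bp apart, 1 close to each gene. The summit 53 bp outside LHCB1.4, at position 14524554 of chromosome 2, had a pileup of 59 and a fold of 7.26 (5.56 to 9.33) in replicate 1. The replicate 2 summit 140 bp outside this gene had a pileup of 20 and a fold of 2.35. The summit 80 bp outside LHCB1.5, at 14523648, had a pileup of 58 and a fold of 6.83 in replicate 1, and the nearby replicate 2 summit had a pileup of 20 and a fold of 2.48. Since the stretch lies within the window of both genes, each of these summits counted for both. Each gene still had its own pair of summits, and both remained met when a summit counted for the nearest gene end alone.

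In the other cluster, on chromosome 1, LHCB1.1 (AT1G29920) was met in both replicates, with pileups of 43 and 19 and folds of 5.40 (3.94 to 7.24) and 3.03 (1.89 to 4.65). LHCB1.3 (AT1G29930) had 5.09 in replicate 1 and LHCB1.2 (AT1G29910) had 2.42, and neither was met in replicate 2. These genes are near-identical copies, and per the alignment file names in the headers reads placed uniquely were used. The part of that choice in their values was not tested, so the order among the copies is uncertain. Unique placement applied to every gene, and its part in the values of LHCB1.4, LHCB1.5 and the LHCB2 genes was not tested either. LHCB3 (AT5G54270), whose product joins LHCII trimers, had 3.50 in replicate 1 alone. In all, 6 of the 9 genes for major LHCII proteins (66.7%) were met in both replicates, against 11.7% of all genes.

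The minor antenna proteins link LHCII to the photosystem II core, and 3 of their 6 genes were met in both replicates. LHCB4.1 (AT5G01530) and LHCB4.2 (AT3G08940) encode CP29. LHCB4.1 had pileups of 95 and 28 and folds of 10.4 (8.43 to 12.7) and 4.05 (2.74 to 5.79), at summits 11 bp apart. LHCB4.2 had pileups of 69 and 24 and folds of 6.92 (5.40 to 8.73) and 3.54 (2.32 to 5.20). LHCB7 (AT1G76570), a rarely expressed relative, had pileups of 54 and 16 and folds of 6.37 (4.81 to 8.27) and 2.38 (1.42 to 3.79), at a summit nearer to its neighbour CP12-3. Its replicate 2 summit, with a −log10 q of 1.63, was near the floor of that list, where the lowest nuclear pileup was 15. LHCB5 (CP26, 6.61), LHCB6 (CP24, 4.86) and LHCB4.3 (4.58) were met in replicate 1 alone.

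The photosystem I antenna followed with 2 of 6 genes (33.3%) met in both replicates, against 11.7% of all genes. LHCA1 (AT3G54890), which encodes a subunit of an LHCI dimer, had pileups of 108 and 29 at summits 3 bp apart, 20341086 and 20341089 of chromosome 3. Its folds were 9.92 (8.15 to 11.95) and 2.56 (1.74 to 3.64). LHCA6 (AT1G19150), whose product joins photosystem I to the chloroplast NDH complex, had pileups of 52 and 17 and folds of 6.26 (4.71 to 8.18) and 2.37 (1.44 to 3.72). The LHCA6 summit of replicate 2 was also near the floor of its list, with a −log10 q of 1.715. In replicate 1 alone, LHCA4 had 7.61, LHCA2 6.35 and LHCA5 3.01. The LHCA5 summit of replicate 1 lay 183 bp inside the gene, and a replicate 2 summit of 3.23 lay 39 bp from it, 222 bp inside the gene and thus just past the window. LHCA3 had no gene-end summit, and its interior held a replicate 1 summit of 3.27.

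**Figure D2:**
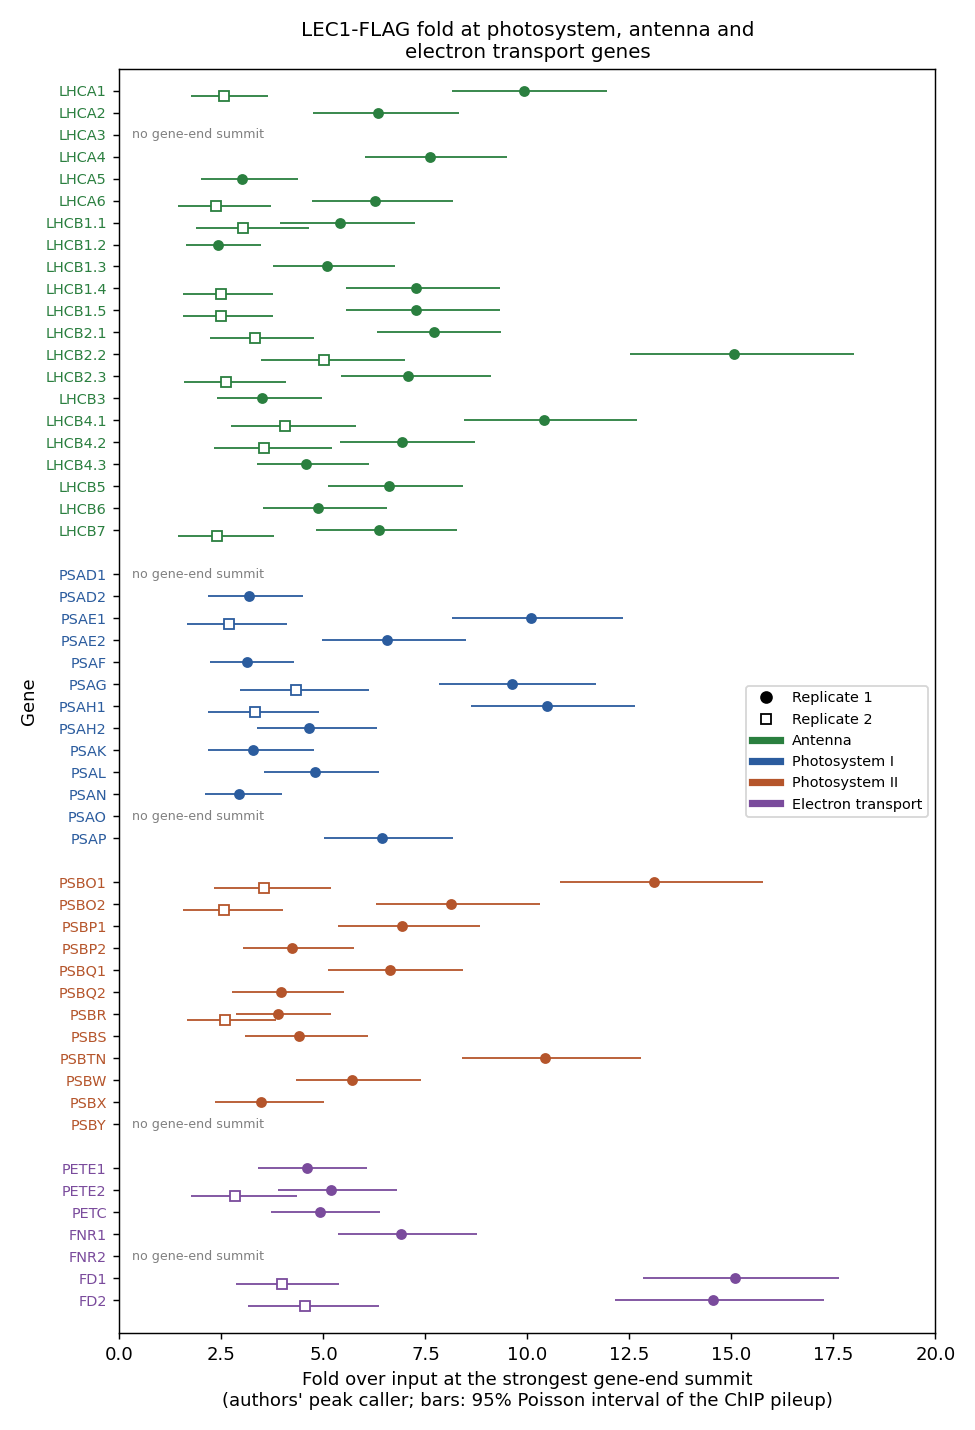
Fold over input (horizontal axis, linear) at the strongest gene-end summit of each gene in replicate 1 (filled circles) and replicate 2 (open squares), with bars for the 95% Poisson interval of the ChIP pileup. LHCB2.2, FD1 and FD2 reach 14.5 to 15.1 in replicate 1, and every open square lies to the left of the circle of the same gene.

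Of the photosystem I genes, PSAH1, PSAE1 and PSAG were met in both replicates. PSAH1 (AT3G16140), for a small membrane subunit at the site where LHCII can dock, had pileups of 108 and 24 at summits 10 bp apart, with folds of 10.5 (8.61 to 12.6) and 3.32 (2.18 to 4.88). PSAE1 (AT4G28750), for a stromal subunit near the ferredoxin site, had pileups of 92 and 19 and folds of 10.1 (8.15 to 12.3) and 2.68 (1.67 to 4.11). PSAG (AT1G55670), for a membrane subunit next to LHCI, had pileups of 99 and 30 and folds of 9.61 (7.83 to 11.7) and 4.32 (2.96 to 6.11). The PSAG summits, at 20803895 and 20803893 of chromosome 1, lay 446 and 444 bp outside the gene and nearest to another gene, AT1G55675. They fell in the interior of AT1G55675, more than 200 bp from its ends and so outside its window. The summits of PSAH1 and PSAE1 lay inside their own gene ends.

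The other photosystem I genes were weaker in replicate 1, and replicate 2 had no gene-end summit at any of them. PSAE2 had 6.56, PSAP (also known as CURT1B, a protein that curves thylakoid membranes) 6.44, PSAL 4.79 and PSAH2 4.66. PSAK, PSAD2, PSAF and PSAN lay between 2.92 and 3.27. The PSAP summit, 210 bp outside the gene, also lay in the window of its neighbour CCA1, a clock gene. PSAD1 had an interior summit of 3.55 in replicate 1 alone, and PSAO had no summit in either list.

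In photosystem II, the genes for PSBO, the extrinsic protein that stabilises the manganese cluster of water oxidation, were both met in both replicates. PSBO1 (AT5G66570) had pileups of 110 and 24 at summits 36 bp apart, 26568601 and 26568637 of chromosome 5, with folds of 13.1 (10.8 to 15.8) and 3.53 (2.32 to 5.19). PSBO2 (AT3G50820) had pileups of 65 and 17 and folds of 8.12 (6.29 to 10.3) and 2.55 (1.55 to 4.00). PSBR (AT1G79040), for a protein of the same lumenal side, had pileups of 44 and 22 and folds of 3.89 (2.85 to 5.19) and 2.58 (1.66 to 3.85). It had the lowest replicate 1 fold of the 20 genes met in both.

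The genes for the other extrinsic proteins of water oxidation were met in replicate 1 alone. PSBP1 had 6.92, PSBQ1 6.62, PSBP2 4.22 and PSBQ2 3.96. PSBTN (AT3G21055), for a small lumenal protein, had the strongest gene-end summit without a replicate 2 counterpart, with a pileup of 89 and a fold of 10.4 (8.39 to 12.8) at position 7377212 of chromosome 3. The nearest replicate 2 summit was 7886 bp away. PSBW had 5.71 and PSBX 3.48.

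PSBS (AT1G44575), the sensor of excess light in the antenna, showed a different arrangement. Its gene-end summit of 4.40 occurred in replicate 1 alone, while its interior held a stronger summit in both replicates. The interior pileups were 93 and 28, at 16871699 and 16871630 of chromosome 1, with folds of 10.95 (8.86 to 13.4) and 3.86 (2.61 to 5.51). PSBS and LHCA5 were the 2 genes that became met in both replicates when the whole gene was counted. PSBY had a replicate 1 summit of 5.23 at 204 bp inside the gene, 4 bp past the window, and none in replicate 2.

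Among the electron carriers, the leaf-type ferredoxin genes were the strongest. FD1 (AT1G10960) had the highest replicate 1 fold of all 53 genes, with pileups of 156 and 40 at 3664318 and 3664299 of chromosome 1 and folds of 15.1 (12.8 to 17.6) and 3.97 (2.87 to 5.38). FD2 (AT1G60950) had pileups of 127 and 32 at 22444441 and 22444401 of chromosome 1 and folds of 14.5 (12.1 to 17.3) and 4.55 (3.16 to 6.37). Both ferredoxin summits lay inside the gene, 131 and 134 bp from an end in replicate 1, and the FD1 summit was nearer to the end of its neighbour TMN1. In each replicate the intervals of FD1 and FD2 overlapped.

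PETE2 (AT1G20340), for the major plastocyanin, was met in both replicates, but its strongest summits lay at opposite ends of the gene. In replicate 1 the stronger end had a pileup of 51 and a fold of 5.19 (3.89 to 6.80). The other end had 3.57 in replicate 1 and, 110 bp from that summit, 2.83 (1.76 to 4.35) in replicate 2. PETE1 (4.59), PETC for the Rieske protein (4.91) and FNR1 (6.89) were met in replicate 1 alone. FNR2 had no summit in its window or its interior in either list.

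Several light reaction proteins are encoded by gene pairs. In 2 of the 7 pairs with a replicate 1 fold for each member, the intervals of the genes did not overlap. In 2 of 9 pairs, PSBO and FD, both genes were met in both replicates. In 3 pairs, PSAE, PSAH and PETE, this held for 1 gene of the pair. In the other 4, PSAD, PSBP, PSBQ and FNR, it held for neither. PSAH1 had 2.25 times the replicate 1 fold of PSAH2, and PSBO1 had 1.61 times that of PSBO2, with replicate 1 intervals that did not overlap in either pair. In replicate 2 the intervals of PSBO1 and PSBO2 overlapped. The PSBP, PSBQ and PSAE ratios were 1.64, 1.67 and 1.54, with overlapping intervals. Overlap of separate intervals does not show that folds are equal, and the differences within pairs were not tested. FD1 and FD2 differed by 1.04 times and PETE2 and PETE1 by 1.13 times, also with overlapping intervals.

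**Figure D3:**
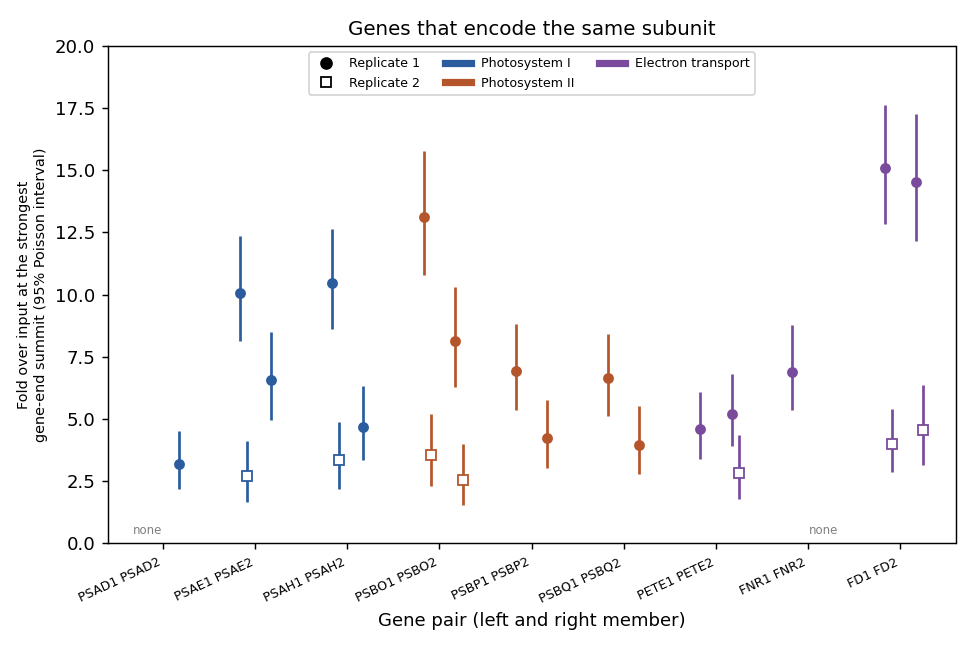
Fold over input at the strongest gene-end summit (vertical axis, linear) for 9 pairs of genes that encode the same subunit, in replicate 1 (filled circles) and replicate 2 (open squares), with 95% Poisson intervals of the pileup. The intervals of PSAH1 (10.5) and PSAH2 (4.66) do not overlap in replicate 1, whereas FD1 (15.1) and FD2 (14.5) lie together.

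Summits of these genes sat close to gene ends. In replicate 1 the strongest summit lay within 200 bp of an end, outside or inside, in 45 of the 48 met genes (93.8%), against 52.1% of all met genes. The median distance was 67.5 bp, against 186 bp over all met genes. In 28 of the 48 (58.3%) it lay on the inner side of the end, against 25.4% of all met genes. The exceptions to the 200 bp were LHCB1.5, PSAG and PSAP. The 53 genes were shorter than most, with a median length of 1367 bp against 2078 bp, and the part of gene length in these distances was not tested. The gene table gives no strand, so a gene's start and its end were not told apart. Of the 48 genes, 32 had a strongest summit that also lay in the window of a neighbour. Among the 20 genes met in both replicates, this held for 14 in replicate 1. They include LHCA1 (neighbour CXIP1), LHCB4.1 (AIRP2), PSAH1 (ROPGEF13) and FD2 (IRT3). In 5 of the 48 (LHCB1.5, LHCB7, PSAG, PSBP1 and FD1) the nearest gene end was that of another gene. These counts are not given over all met genes, so they cannot be called particular to the members.

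**Figure D4:**
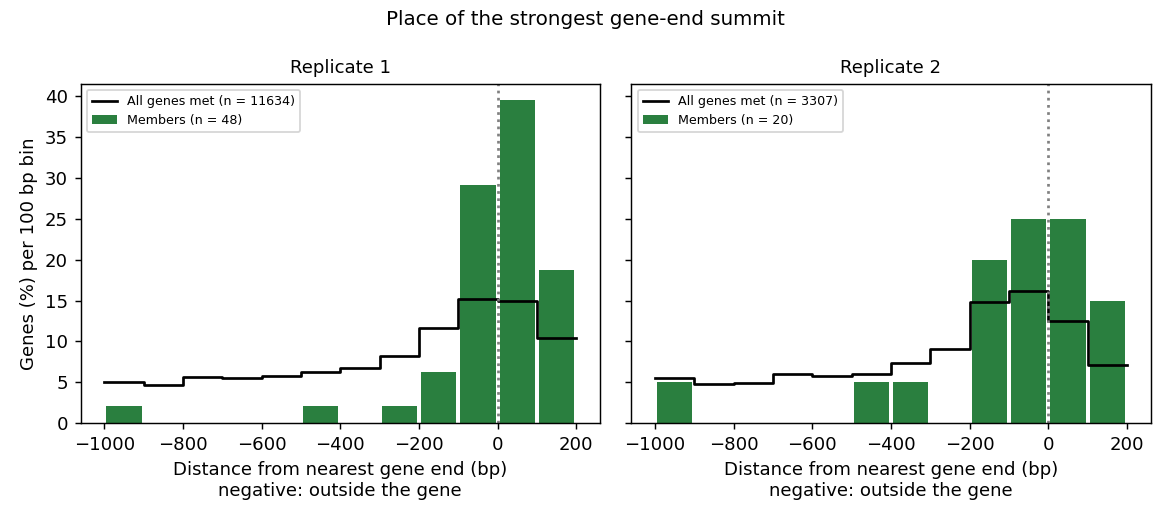
Distance of the strongest gene-end summit from the nearest gene end (horizontal axis, bp, negative outside the gene) as the share of genes per 100 bp bin (vertical axis, %), for the members (bars) and all met genes (line), in replicate 1 (left, 48 members) and replicate 2 (right, 20 members). In replicate 1 the bars rise to 39.6% in the first 100 bp inside the gene end, where the line is at 15.0%.

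Replicate 2 gave a lower fold at each of the 20 genes met in both, as it did at most of all genes met in both. At 17 of the 20 the intervals of the replicates did not overlap, LHCB1.1, PSBR and PETE2 being the exceptions. This count is not given over all genes, so it cannot be called particular to the members. At some genes the strongest summits of the replicates were different sites, 1798 bp apart at PETE2 and 885 bp at LHCB1.4 and LHCB1.5. LHCB1.4 and LHCB1.5 share these summits, so the same comparison counts for each of them here and in the medians below. The ratio of replicate 2 to replicate 1 ran from 0.258 at LHCA1 to 0.664 at PSBR, with a median of 0.355, against 0.410 over all genes met in both. The median fold of the 20 genes was 7.92 in replicate 1 and 2.93 in replicate 2, against 8.51 and 3.45 over all genes met in both. The genes of the light reactions that were met in both replicates thus lay slightly below the median of such genes in each list, although a larger share of them was met.

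Whether a gene was found again in replicate 2 went with its fold in replicate 1. With a replicate 1 fold of at least 9, 9 of 10 genes were met in replicate 2 (90%, against 92.9% of all genes in that range), PSBTN being the exception. With 6 to 9, 8 of 16 were met (50%, against 52.7%), and with 4 to 6, 2 of 12 (16.7%, against 18.0%). Below 4 it was 1 of 10, PSBR (10%, against 4.14%). From a replicate 1 fold of 4 upwards these shares were near those of all genes of like fold. Over the whole range, 41.7% of the members met in replicate 1 were found again, against 27.5% of all such genes, and 37 of the 48 members had a replicate 1 fold above the median of all met genes.

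A further 39 genes with roles around the same complexes gave 24 met in replicate 1 (61.5%) and 11 in both replicates (28.2%), against 42.4% and 11.7% of all genes. They comprised chloroplast ATP synthase subunits, light stress relatives of the antenna proteins, regulators of electron flow, other ferredoxins and FNRs, and factors that insert or assemble the complexes. All 5 stress relatives were met in replicate 1 and 3 in both, namely ELIP1 (10.8 and 4.53), OHP1 (10.2 and 3.65) and ELIP2 (9.11 and 2.79). CPSRP54, which helps to carry antenna proteins to the thylakoid, had the highest gene-end folds of this list, 15.7 in replicate 1 and 5.16 in replicate 2. Of 13 assembly factors, PSB28 (7.72 and 4.71), HCF107 (9.91 and 3.36) and THF1 (9.04 and 2.42) were met in both.

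The other 4 were ATPD (11.6 and 2.92), the thylakoid protein kinase gene STN8 (10.2 and 2.74), FDC2 (9.86 and 3.69) and the root-type FNR gene RFNR2 (12.2 and 2.84). The RFNR2 summit was nearest to its neighbour NF-YA7, which encodes an NF-YA subunit, the class that completes the NF-Y complex, and that of ATPD was nearest to its neighbour AT4G09649. At the authors' threshold the light reaction genes were met in a larger share than these companions, at 90.6% against 61.5% in replicate 1 and 37.7% against 28.2% in both. With −log10 q of at least 5 the shares in both replicates were 17.0% and 15.4%, and with at least 10 they were 5.66% and 7.69%, against 6.65% and 2.58% of all genes. The companions met in both replicates had the higher median fold, 10.2 against 7.92 in replicate 1. None of these differences was tested.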

How the data were processed

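Per the labels' protocols, fragments of developing-seed chromatin were sequenced as ChIP and input libraries. The tools and build given in the submitters' processing notes are BWA 0.7.12, MACS2 2.1.0.20150420 and TAIR10. Per the file headers, the authors called peaks for the replicates separately, each ChIP against its matching input, at q 0.05, with fragments extended to 187 bp (replicate 1) and 149 bp (replicate 2). The deposited pileup is a signal, the count of extended fragments over a summit. The deposited fold is a ratio of pileup to the peak caller's background, with 1 added to both. The deposited −log10 q-value was used as a filter only, and no result rests on the −log10 p-value.

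Here, summits on the 5 nuclear chromosomes were assigned to RefSeq genes of TAIR10.1, to which all 53 loci matched by identifier. As a check of coordinates, 42.6% of summits of each replicate lay within 200 bp of a gene end, and 15.0% to 19.0% after shifts of 1000 or 5000 bp. A gene's value is its gene-end summit of highest fold. This background was computed as (pileup + 1) / fold, which leaves in it the 1 added by the peak caller. It was 7.96 to 13.3 at the members in replicate 1, and its median was 9.24 there against 9.02 over all met genes. Intervals are exact Poisson (scipy 1.17.1). The assignment was tested on simulated data, where all 790 summits placed around 158 genes were assigned as placed. Python 3.11.15, numpy 2.4.6, pandas 2.3.3 and matplotlib 3.10.9 were used.

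All genes met in both replicates are described in full, with the 5 strongest met in replicate 1 alone named. PSBS, LHCA5 and other genes were named after their values were seen, as were the fold ranges. The members and lists were chosen with earlier results of these data known. Alternatives used stricter q, other windows, the nearest gene end, close summits, a shortened replicate 1 list and single replicates. Sequence elements were not analysed here.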

Additional observations from a re-analysis of the deposited data

Results flagged for a closer look

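The nuclear genes above were the main measurement. Outside it, replicate 2 had 26 peaks with 292 summits on the chloroplast genome, which encodes the photosystem cores, and replicate 1 had none. They are listed here as a signal in data that no comparison used. Their median pileup was 231 fragments, while their fold over input was 1.44 to 1.89, below the lowest gene-end fold of 2.35 at the nuclear light reaction genes in that replicate.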

How the results depend on the processing

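The count of 20 genes met in both replicates stayed within 1.5 times under every window tried, with the nearest gene end alone (16, without LHCB4.2, LHCB7, PSAG and FD1), with close summits (20), with the replicate 1 list held to as many peaks as replicate 2 (16) and with summits within 200 bp of a gene end (18, an alternative chosen after seeing the data). In all, 64 of the alternative values stayed near the main one and 18 moved. Stricter thresholds lowered the counts for all genes as well. At −log10 q of at least 5, 9 of 53 members (17.0%) were met in both, against 6.65% of all genes: 4 antenna, 1 photosystem II and 2 each of photosystem I and electron transport. The companions had 6 (15.4%), and the antenna lead over photosystem I shrank to 19.0% against 15.4%. Replicate 2 had 9 members, and median folds of the 9 were 10.5 and 3.97, by construction higher. At −log10 q of at least 10, 3 members remained (5.66%, against 2.58%), namely LHCB2.2, FD1 and FD2: 1 antenna, 0 photosystem I and 0 photosystem II genes, with 3 companions (7.69%).

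Leaving out either replicate gave 20 to 48 members, 11 to 20 antenna genes, 3 to 11 photosystem I, 3 to 11 photosystem II and 3 to 6 electron transport genes, and 11 to 24 companions. Each upper value is replicate 1 alone, in which the antenna share was 95.2% against 84.6% and 91.7% for the photosystems. No paired analysis was possible because the results come from no test and the input libraries entered through the authors' peak calls alone. The pileups of 16 to 40 in replicate 2, where the lowest nuclear pileup was 15, limit precision there.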

Other observations

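Some companion genes had their strongest signal inside the gene, where the gene-end count does not see it. PSB27, for an assembly factor of photosystem II, had an interior summit at position 898842 of chromosome 1 in both replicates, with pileups of 160 and 45 and folds of 15.5 (13.2 to 18.1) and 5.88 (4.32 to 7.82). CPSRP43, a chaperone of antenna proteins, had interior folds of 17.0 (14.5 to 19.8) and 3.09 (2.04 to 4.50) at summits 19473705 and 19473722 of chromosome 2. ALB3, the insertase that places antenna proteins in the thylakoid, had 7.64 (6.11 to 9.45) and 3.90 (2.71 to 5.46) at 12359314 and 12359302 of chromosome 2. With PSBS, these 3 were named after their values were seen.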
